A study of Homo sapiens with 36 samples.

Results

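The genes described here are 39 interferon-stimulated genes, chosen by symbol: a probe was used when its only annotated gene symbol was on the list, and where several probes qualified, the brightest on average across the 36 arrays stood for the gene. Of the 39, 37 were measured, among 17958 genes in all. TRIM22 was the only one with 2 such probes. STAT2 and DTX3L had no probe with a single symbol and were not analysed here. Expression was measured on single-colour Affymetrix arrays in 3 human lines from breast cancers (MDA231, then SUM159PT, then BT549), with 4 groups of 3 arrays (letters A, B and C) in each line. All cells were reverse transfected with siRNA at 10 nM and harvested 96 h later. The groups were siDUSP4 cells with DMSO, control-siRNA cells given 1 uM selumetinib (AZD6244) for the last 4 h, control-siRNA cells given it for the last 24 h, and control-siRNA cells with DMSO (siCONTROL). Selumetinib inhibits the kinases MEK1 and MEK2, and DUSP4 is a nuclear phosphatase whose substrates include ERK. The stated question was how gene expression differs after MEK inhibition and after loss of DUSP4 function. Every group thus carries a transfected siRNA, and DUSP4 loss and other effects of that siRNA cannot be told apart in this design. The lines also grew in different media, that of SUM159PT with hydrocortisone, so line and medium cannot be told apart.

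Interferon-stimulated genes are switched on when type I, II or III interferons bind their receptors and JAK kinases phosphorylate STAT proteins. A complex that holds STAT2 and IRF9 binds the interferon-stimulated response element, and the induced proteins block viral entry, destroy viral RNA or stop its translation. Many tumour cell lines express such genes in culture without added interferon, and the same genes answer to viral nucleic acid and to double-stranded RNA.

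Values are log2 signals made with RMA by the authors, and a gene is called at an adjusted p under 0.05 (limma, Benjamini-Hochberg over all 17958 genes). Counts at an unadjusted p under 0.05 are given for the listed genes only, without the share of all genes at that threshold. Counts in repeats of the fit are likewise given without the share of all genes in that repeat. Most genes with values in every array were picked as the largest called changes in these same arrays. That their groups do not overlap largely follows from that choice and is no separate evidence, and no share of all genes is set beside it. For 24 arrays the labels conflict over SUM159PT and BT549; the titles were followed, and every statement on those lines rests on that. RB1, which BT549 has lost, averaged 6.83 ± 0.16 in siCONTROL arrays titled BT549 (SD, n = 3), below 10.31 ± 0.09 in MDA231 and 9.40 ± 0.01 in SUM159PT. Over all groups RB1 reached 8.15 in arrays titled BT549 and was at 8.96 or above in the other lines. CDKN2A was at 9.70 or above in every array titled BT549 and at 4.58 or below in the others. For CDKN2B these bounds were 8.06 and 4.70. VIM was at 11.61 or above in every array, and ESR1 and PGR at 4.80 or below. The other markers were mixed, with the mesenchymal gene SPARC at 5.14 in siCONTROL MDA231, the epithelial gene EPCAM at 8.39 there, and the epithelial keratin KRT18 at 9.66 to 11.10 over the lines. Of 8 measured markers of blood and endothelial cells, CD3E, HBB, VWF and LYZ had siCONTROL means between 3.36 and 4.62 in the 3 lines. The others were higher in some lines: CD68 averaged 10.88, 9.72 and 9.46 in MDA231, SUM159PT and BT549, PECAM1 7.37, 7.11 and 4.74, CD14 5.29, 6.94 and 4.51, and PTPRC 3.95, 5.75 and 3.83. Of these markers, 1 rose (LYZ) and 1 fell (PECAM1) with siDUSP4 in MDA231, 1 fell (PTPRC) in SUM159PT and 0 changed in BT549, and their part in the results was not tested. Array medians ran from 5.119 to 5.402, and the MDA231 4 h arrays B and C and the BT549 24 h array A stood apart by their low upper quartiles, and it is said below which named calls of those groups against siCONTROL were lost without these 3 arrays. DUSP4 itself fell with siDUSP4 in each line, with changes of -2.42 in MDA231, -1.84 in SUM159PT and -2.24 in BT549. It was lower with selumetinib too, with changes of -2.35, -1.35 and -0.66 after 4 h in the same order of lines. After 24 h they were -1.26, -0.85 and -0.72. All were called except that of BT549 at 4 h (adjusted p = 0.062 in limma). Without the 3 arrays that stood apart the 4 h change in MDA231 was -1.95. Precision is limited by the number of arrays. The labels do not say that the letters are separate cultures, so p-values cover only how far these samples vary, and that variation may be technical. In bulk RNA, fewer cells with a transcript and less of it per cell cannot be told apart.

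In siCONTROL cells most of these genes were highest in SUM159PT. That held for 26 of 37, and 24 of those were called above both other lines. How many of all genes had that order was not counted, and the shares for each pair of lines are given below. Among the others, 6 were highest in BT549 (ISG15, IFI35, IRF1, IRF7, IRF9 and CMPK2) and 5 in MDA231 (IFIT5, ISG20, OAS1, OAS2 and OAS3). The median difference MDA231 minus SUM159PT was -1.08 for the members and -0.01 for all genes. In that comparison 3 members were called higher and 27 lower, against backgrounds of 23.1% and 21.7% of all genes. The median difference SUM159PT minus BT549 was 1.19 for the members and -0.01 for all genes. There 26 members were higher and 4 lower, with backgrounds of 22.3% and 27.9%. MDA231 minus BT549 had a median of 0.15, with 15 members higher and 12 lower (21.8% and 26.3% of all genes). The SUM159PT excess thus covered a larger share of these genes than of all genes, and the other pair of lines was mixed.

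IFITM1, a membrane protein that blocks viral entry, had the widest range. In siCONTROL it averaged 9.0 ± 0.18 in MDA231, 11.96 ± 0.04 in SUM159PT and 6.41 ± 0.19 in BT549 (SD, n = 3), and no 2 lines overlapped. BST2 (tetherin), which holds budding virions at the cell surface, averaged 6.81 ± 0.14, 9.62 ± 0.03 and 5.15 ± 0.12 in the same order of lines (SD, n = 3). OASL, a catalytically inactive relative of the 2'-5' oligoadenylate synthetases, averaged 5.65 ± 0.14 in MDA231, 9.28 ± 0.07 in SUM159PT and 6.37 ± 0.03 in BT549. IFI44L was at 5.67 ± 0.16, 9.02 ± 0.14 and 8.21 ± 0.25, so that only MDA231 was low. IFI35, a protein that partners with NMI, had another order, with 8.16 ± 0.22 in MDA231, 8.10 ± 0.05 in SUM159PT and 10.09 ± 0.10 in BT549, and its first 2 lines did not differ beyond their spread. Neighbouring lines in the order of levels were not called different for OAS1, OAS3, ISG20 and CMPK2 at either step. CMPK2, a mitochondrial nucleotide kinase, was the only member below the median probe level of 5.328 in all 3 lines. In MDA231 7 members lay below that level, in SUM159PT 1 and in BT549 6, and falls from such levels are hard to see.

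**Figure D1:**
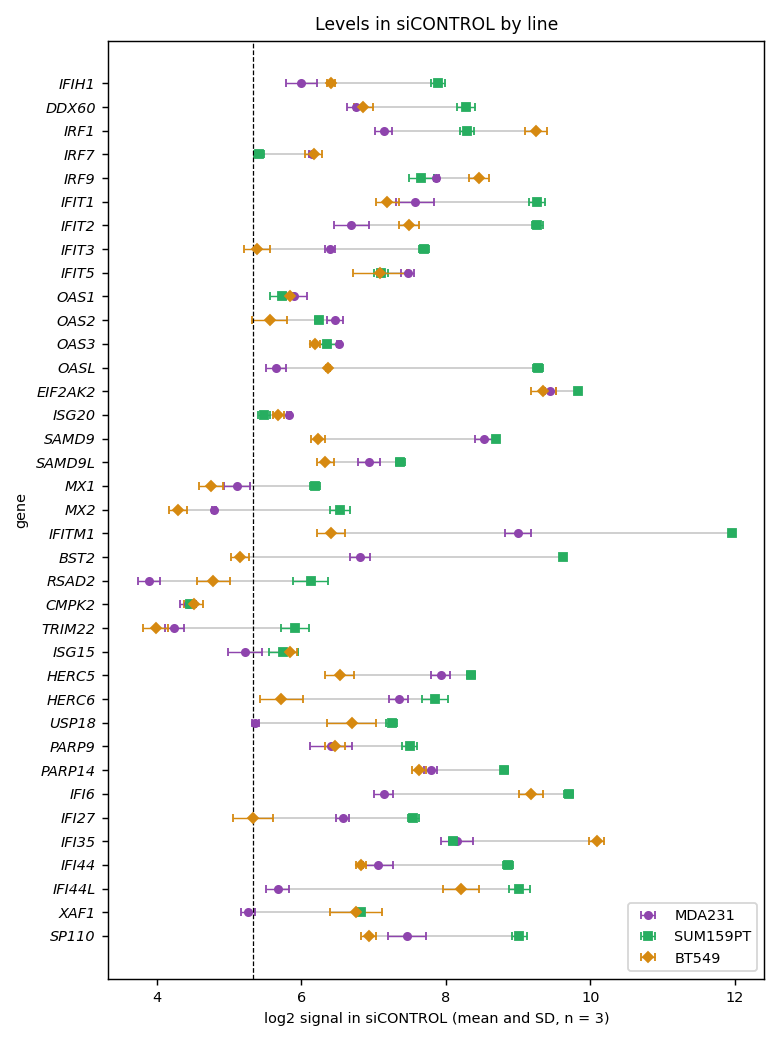
Mean log2 signal in siCONTROL arrays (horizontal axis; bars show the SD, n = 3) for each of the 37 genes in MDA231 (circles), SUM159PT (squares) and BT549 (diamonds), with the median probe level dashed. For 26 of the 37 genes the square is the rightmost symbol, and signals of different genes are not comparable with each other.

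RefSeq promoter windows of GRCh38.p14, from 250 bases before to 50 after each annotated start, were matched to 30 of the 37 genes and gave 41 windows, as some genes have several starts. The letters searched for the interferon-stimulated response element were GAAA, any 2 bases and GAAA again, on both strands. They occurred in 25 of the 41 windows (61.0%), which belong to 21 genes, against 3.57% of all 35116 windows. The letters TTCNNNGAA, the core of the gamma-activated site bound by STAT dimers, occurred in 12 of the 41 windows (29.3%) and in 7.66% of all windows. Each motif was counted on its own, and matches of both may overlap. Stretches before the start are shown for 7 genes on which the results below turn, written along the strand of the gene, with the response element letters in capitals; where the capitals read TTTC first, the match is on the opposite strand.
IFIT1: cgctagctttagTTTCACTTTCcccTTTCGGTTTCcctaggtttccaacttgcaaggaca
IFIT3: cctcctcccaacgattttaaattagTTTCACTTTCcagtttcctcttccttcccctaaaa
IFI44: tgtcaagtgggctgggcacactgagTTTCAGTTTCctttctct
IFI6: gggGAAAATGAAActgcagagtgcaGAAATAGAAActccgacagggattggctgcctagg
IFITM1: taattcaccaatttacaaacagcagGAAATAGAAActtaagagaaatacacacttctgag
SAMD9: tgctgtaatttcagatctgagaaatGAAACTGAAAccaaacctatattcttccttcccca
HERC5: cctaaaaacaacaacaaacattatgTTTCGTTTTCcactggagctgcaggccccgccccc
These lie at chr10:89392495-89392554 (IFIT1, + strand), chr10:89327850-89327909 (IFIT3, +), chr1:78649746-78649788 (IFI44, +), chr1:27672251-27672310 (IFI6, -), chr11:313975-314034 (IFITM1, +), chr7:93118081-93118140 (SAMD9, -) and chr4:88457020-88457079 (HERC5, +). The IFIT1 and IFI6 stretches hold 2 matches each and the others 1. The 9 matched genes with no such letters in their windows were OAS1, IFI35, IRF1, IRF9, HERC6, CMPK2, XAF1, SAMD9L and SP110. A match is a run of letters and not a measured binding site. IFIT2, MX2, OAS2, OASL, IRF7, USP18 and TRIM22 had no entry.

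With siDUSP4 these genes moved in different directions by line. In MDA231 12 of 37 rose and 3 fell, against a background of 7.86% of all genes higher and 9.77% lower. In SUM159PT 8 rose and 0 fell, with 1.05% of all genes higher and 1.78% lower. In BT549 1 rose and 15 fell, with 4.97% higher and 9.22% lower. Over all members the median change was 0.18 in MDA231, 0.14 in SUM159PT and -0.30 in BT549, beside 0.01, -0.04 and 0.01 over all genes. At an unadjusted p under 0.05 limma still gave 0 lower members in SUM159PT. In all, 26 members were called in at least 1 line (28.7% of all genes were), 11 in 2 or more (5.41%), and 8 had opposite calls in 2 lines (1.44%): IFIT1, IFIT2, IFIT3, OAS2, OASL, IFI35, RSAD2 and SAMD9L. The changes of 19 members were positive in MDA231 and SUM159PT and negative in BT549, whether called or not, as were those of 10.1% of all genes. With quantile normalization repeated the member median in BT549 was -0.19, and with the medians of named genes aligned it was -0.16.

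**Figure D2:**
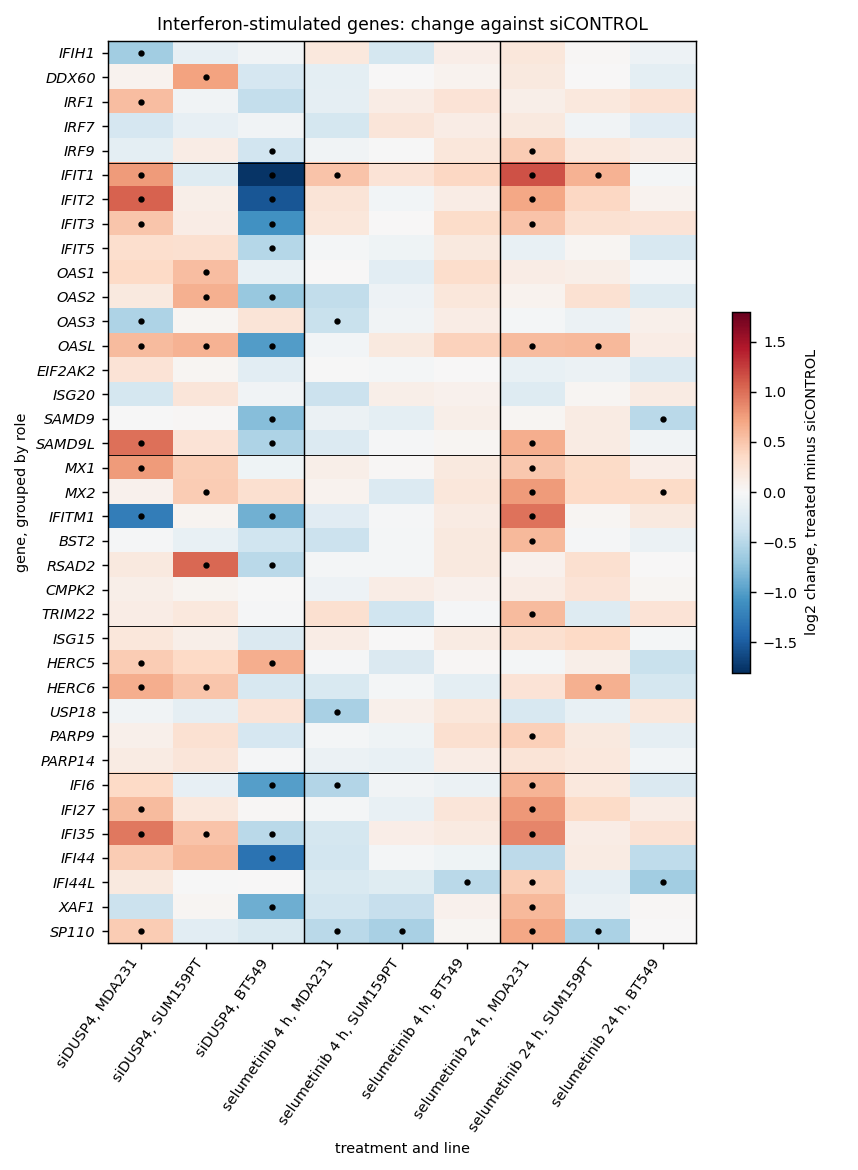
Log2 change of each of the 37 genes (down the page, grouped by role) against siCONTROL for 3 treatments in 3 lines (across), red higher and blue lower, with a dot where the adjusted p was under 0.05. The siDUSP4 column of BT549 holds 15 dots on blue and the 24 h selumetinib column of MDA231 holds 18 dots on red.

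In MDA231 the rises with siDUSP4 included 5 of 12 RNA-binding and translation genes (IFIT1, IFIT2, IFIT3, OASL and SAMD9L), of which 1 fell (OAS3), and 3 of 7 other induced proteins (IFI27, IFI35 and SP110), of which 0 fell. IFIT2, which binds viral RNA and restricts translation, was at 7.69, 7.70 and 7.85 in siDUSP4 arrays, against 6.89, 6.75 and 6.42 in siCONTROL. The groups did not overlap, and the change was 1.06 ± 0.11 (SE; adjusted p = 1.9e-08), or 2.08-fold. SAMD9L, a cytoplasmic restriction factor that inhibits translation, was at 7.85, 7.91 and 8.03 in siDUSP4 arrays and at 6.86, 7.11 and 6.85 in siCONTROL. It rose by 0.99 ± 0.12 (SE; adjusted p = 2.9e-07). IFIT1, which binds RNA lacking the cap methylation of host messages, rose by 0.76, and IFIT3, its partner protein, by 0.50. OASL rose by 0.57 and SP110, a nuclear body protein, by 0.46.

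IFI35 stood at 9.07, 9.16 and 9.11 in siDUSP4 arrays of MDA231, against 7.96, 8.13 and 8.40 in siCONTROL, and rose by 0.95 ± 0.14 (SE; adjusted p = 5.5e-06). MX1, a dynamin-like GTPase that traps viral nucleocapsids, was at 5.94, 5.90 and 5.80 in siDUSP4 arrays and at 5.23, 4.90 and 5.21 in siCONTROL, a rise of 0.77 ± 0.15 (SE; adjusted p = 0.00027). No array of either gene overlapped the other group. The ISG15 ligase HERC5 and its relative HERC6 rose by 0.45 and 0.66, IFI27, a small hydrophobic protein, by 0.57, and the transcription factor IRF1 by 0.56.

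The largest change of a member in MDA231 was a fall. IFITM1 was at 7.65, 7.88 and 7.75 in siDUSP4 arrays, against 9.21, 8.92 and 8.87 in siCONTROL, and the groups did not overlap. The change was -1.24 ± 0.16 (SE; adjusted p = 9.3e-07), which left 42.3% of the siCONTROL signal. IFIH1, the cytosolic sensor MDA5, fell by 0.63 (adjusted p = 0.00059), with 5.31 to 5.39 in siDUSP4 arrays and 5.79 to 6.22 in siCONTROL. OAS3, which makes the 2'-5' oligoadenylates that activate RNase L, fell by 0.55 (adjusted p = 0.00037). The 2 synthetases OAS1 and OAS2 had changes of 0.36 and 0.18 there and did not pass the test.

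In BT549 the same IFIT genes fell with siDUSP4. IFIT1 was at 5.37, 5.17 and 5.71 in siDUSP4 arrays, against 7.03, 7.19 and 7.35 in siCONTROL, and its change of -1.77 ± 0.14 (SE; adjusted p = 7.9e-11) left 29.3% of the siCONTROL signal. IFIT2 was at 5.93, 5.96 and 5.97 in siDUSP4 arrays and at 7.37, 7.65 and 7.46 in siCONTROL, a change of -1.54 ± 0.11 (SE; adjusted p = 1.4e-11). IFIT3 was at 4.22, 4.37 and 4.30 in siDUSP4 arrays, below the median probe level, and at 5.21, 5.38 and 5.56 in siCONTROL, a change of -1.09 ± 0.11 (SE; adjusted p = 5.9e-09). The groups did not overlap for any of the 3 genes. IFIT5, another RNA-binding relative, fell by 0.52, with 6.51 to 6.65 in siDUSP4 arrays and 6.69 to 7.41 in siCONTROL.

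IFI44, a protein induced in hepatitis C infection, was at 5.62, 5.36 and 5.50 in siDUSP4 arrays of BT549 and at 6.78, 6.91 and 6.79 in siCONTROL. It fell by 1.33 ± 0.18 (SE; adjusted p = 3.3e-06). OASL was at 5.44, 5.30 and 5.37 in siDUSP4 arrays and at 6.36, 6.41 and 6.35 in siCONTROL, and its change of -1.0 ± 0.13 (SE; adjusted p = 1.4e-06) left 49.9%. Both genes were separated by more than the spread of either group. IFI6, a mitochondrial protein that limits apoptosis, fell by 0.99, XAF1, a pro-apoptotic antagonist of XIAP, by 0.88, IFITM1 by 0.86, SAMD9 by 0.76 and SAMD9L by 0.55. Also lower were OAS2 at -0.68, IFI35 at -0.49, RSAD2 (viperin, which makes a chain-terminating nucleotide) at -0.48 and IRF9, a DNA-binding subunit of the complex that holds STAT2, at -0.35. The 1 member that rose was HERC5, at 7.23, 7.14 and 7.19 in siDUSP4 arrays and 6.56, 6.72 and 6.32 in siCONTROL, a change of 0.65 (adjusted p = 0.0015). With the medians of named genes aligned, which moved the median of all genes from 0.01 to 0.15, the split in BT549 was 3 higher and 13 lower.

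In SUM159PT the rises were fewer and the IFIT genes were not among them. RSAD2 was at 7.07, 7.21 and 7.22 in siDUSP4 arrays, against 5.85, 6.26 and 6.27 in siCONTROL, a change of 1.04 ± 0.13 (SE; adjusted p = 3.9e-06). DDX60, a helicase that aids RIG-I signalling, was at 9.07, 9.0 and 8.95 in siDUSP4 arrays and at 8.17, 8.26 and 8.41 in siCONTROL, a change of 0.73 ± 0.14 (SE; adjusted p = 0.0016). Neither gene overlapped between the groups. In MDA231 the same genes changed by 0.18 and 0.07 and did not pass the test.

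Among the synthetases in SUM159PT, OAS2 was at 6.80, 6.91 and 6.94 in siDUSP4 arrays and at 6.19, 6.28 and 6.25 in siCONTROL, a change of 0.64 ± 0.16 (SE; adjusted p = 0.018). OASL was at 9.68, 10.02 and 9.98 in siDUSP4 arrays and at 9.20, 9.29 and 9.33 in siCONTROL, a change of 0.62 ± 0.13 (SE; adjusted p = 0.0037). OAS1 was at 6.05, 6.34 and 6.48 in siDUSP4 arrays and at 5.58, 5.72 and 5.89 in siCONTROL, a change of 0.56 ± 0.15 (SE; adjusted p = 0.037). All 3 were without overlap, yet OAS1 and OAS2 lost the call when single arrays were left out. IFI35 rose by 0.52, HERC6 by 0.50 and MX2, a nuclear-pore relative of MX1 that restricts HIV, by 0.46. Leaving out 1 array of the 6 in turn gave 3 to 7 rises, so the count of 8 in this line depends on single arrays: 3 remained called without siCONTROL array A, siDUSP4 array B or siDUSP4 array C, and 5 without siCONTROL array B or C.

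The line differences were tested directly. That the direction of these genes differs between lines was known from these data when the tests were set, here and for selumetinib below. The counts are therefore no separate evidence of it. An F test of whether the siDUSP4 change differed between the 3 lines called 19 of 37 members, against 15.5% of all genes. The change was larger in MDA231 than in BT549 for 17 members and smaller for 2 (7.34% and 5.99% of all genes), with a median difference of 0.49 over the members and 0.00 over all genes. SUM159PT minus BT549 gave 16 higher and 0 lower (3.26% and 2.37%), with a median of 0.52 beside -0.04, and at an unadjusted p under 0.05 limma also gave 0 lower. MDA231 minus SUM159PT gave 4 higher (IFIT1, IFIT2, SAMD9L and SP110) and 4 lower (IFITM1, RSAD2, DDX60 and OAS3), against 3.15% and 3.54%. The largest differences were those of IFIT2, 2.60 ± 0.16 (SE; adjusted p = 7.8e-13), and IFIT1, 2.53 ± 0.20 (SE; adjusted p = 1.4e-10), both MDA231 minus BT549. IFITM1 fell in MDA231 and in BT549 but changed by 0.05 in SUM159PT, and its MDA231 minus SUM159PT difference was -1.30 ± 0.23 (SE; adjusted p = 0.00032).

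**Figure D3:**
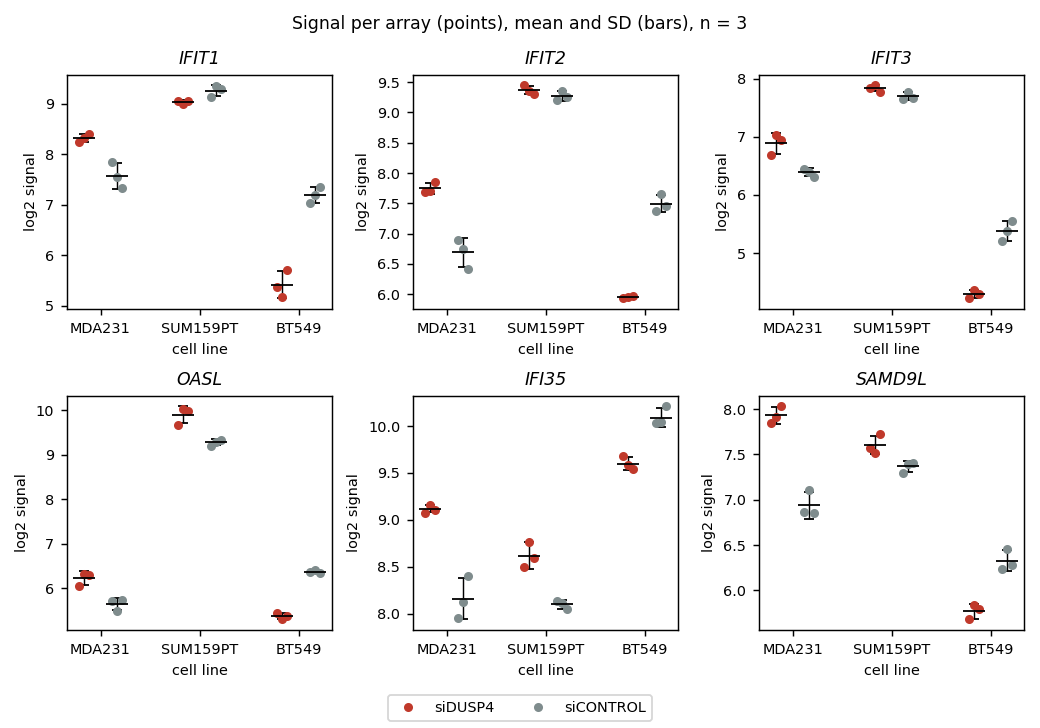
Log2 signal in each array (points), with mean and SD (bars, n = 3), for 6 genes with siDUSP4 (red, left) and siCONTROL (grey, right) in MDA231, SUM159PT and BT549. In MDA231 the siDUSP4 points of all 6 genes lie above siCONTROL, and in BT549 they lie below.

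After 4 h of selumetinib few members changed. In MDA231 1 rose and 4 fell, against 1.11% higher and 14.5% lower over all genes, and the member median of -0.10 was close to the -0.13 of all genes. IFIT1 was at 8.17, 7.86 and 8.25 after 4 h, against 7.84, 7.55 and 7.33 in siCONTROL, a change of 0.52 ± 0.14 (SE; adjusted p = 0.013). USP18, a protease that removes ISG15 and dampens receptor signalling, was at 5.40, 4.64 and 4.29 after 4 h and at 5.42, 5.32 and 5.35 in siCONTROL, a change of -0.59 ± 0.20 (SE; adjusted p = 0.04). IFI6 was at 7.07, 6.28 and 6.48 after 4 h and at 7.24, 7.20 and 6.99 in siCONTROL, a change of -0.53 ± 0.14 (SE; adjusted p = 0.011). The low values of USP18 and IFI6 were those of arrays B and C, which stood apart, while array A overlapped siCONTROL. SP110 and OAS3 also fell, by 0.48 and 0.40. Without the 3 arrays that stood apart, where the 1 MDA231 array left at 4 h is assumed to vary like the other groups, 0 members were called in either direction. USP18 then changed by 0.03, IFI6 by -0.07 and IFIT1 by 0.60. Single arrays decided the count of falls, which was 13 without 4 h array A, 0 without B, 1 without C, and 2 without siCONTROL array A or B. The rise of IFIT1 was not called without 4 h array C or siCONTROL array C.

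In SUM159PT 0 members rose and 1 fell after 4 h, with 0.473% and 3.81% of all genes. At an unadjusted p under 0.05 limma gave 0 higher and 5 lower. The blood cell marker PTPRC fell by 0.39 in the same comparison, and its part in the result was not tested. The call was SP110, at 8.33, 8.51 and 8.50 after 4 h and at 8.91, 9.09 and 9.07 in siCONTROL, a change of -0.58 ± 0.14 (SE; adjusted p = 0.012) without overlap. In BT549 0 rose and 1 fell, with 0.161% and 0.49% of all genes, and 4 were higher at an unadjusted p under 0.05. The changes of 32 of the 37 members were positive there, against 44.8% of all genes, with medians of 0.14 over the members and -0.02 over all genes. The call was IFI44L, at 7.73, 7.74 and 7.71 after 4 h and at 7.93, 8.39 and 8.32 in siCONTROL, a change of -0.48 ± 0.12 (SE; adjusted p = 0.039). The SP110 call was lost without 4 h array A or siCONTROL array B or C, and that of IFI44L without any 1 of the 4 h arrays or siCONTROL array B or C. The F test of line differences at 4 h called 0 members in limma, against 1.84% of all genes, and 13 at an unadjusted p under 0.05. The 1.84% is for adjusted calls, and no share of all genes was counted to set beside the 13.

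After 24 h of selumetinib the members rose in MDA231. There 18 of 37 rose and 0 fell, against 7.36% higher and 10.3% lower over all genes, and 1 was lower at an unadjusted p under 0.05. The median change was 0.29 over the members and 0.02 over all genes. Of the 7 members that act on viral entry, replication or release, 5 rose: IFITM1, MX2, BST2, TRIM22 and MX1. Of the 12 RNA-binding and translation genes 5 rose: IFIT1, IFIT2, IFIT3, OASL and SAMD9L. Of the 7 other induced proteins 6 rose: IFI6, IFI27, IFI35, IFI44L, XAF1 and SP110. PARP9, an ADP-ribosyltransferase relative that works with DTX3L, rose by 0.43, and IRF9 by 0.46.

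IFIT1 was at 8.77, 8.65 and 8.75 after 24 h in MDA231, against 7.84, 7.55 and 7.33 in siCONTROL. It rose by 1.15 ± 0.14 (SE; adjusted p = 1.9e-07), or 2.22-fold. IFITM1 was at 10.17, 9.86 and 9.91 after 24 h and at 9.21, 8.92 and 8.87 in siCONTROL, a rise of 0.98 ± 0.16 (SE; adjusted p = 2.9e-05), where siDUSP4 had lowered it. IFI35 was at 9.05, 9.01 and 9.07 after 24 h and at 7.96, 8.13 and 8.40 in siCONTROL, a rise of 0.88 ± 0.14 (SE; adjusted p = 1.2e-05). None of the 3 overlapped. MX2 rose by 0.77, IFI27 by 0.78, SP110 by 0.70, BST2 by 0.59 and XAF1 by 0.59. TRIM22, an antiviral ubiquitin ligase, rose by 0.57 in a signal below the median probe level, with 4.57 to 5.09 after 24 h and 4.13 to 4.38 in siCONTROL. Of the 8 blood and endothelial markers 1 fell after 24 h in each line, PECAM1 by 1.65 in MDA231, PTPRC by 0.52 in SUM159PT and CD68 by 0.86 in BT549, and their part in the result was not tested.

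In SUM159PT 3 members rose after 24 h and 1 fell, with 1.34% and 2.94% of all genes, and the medians were 0.15 and -0.01. The count of rises was 6 with the line fitted alone, 7 with quantile normalization repeated, 5 without the 3 arrays that stood apart and 5 with the medians of named genes aligned. HERC6 was at 8.47, 8.52 and 8.47 after 24 h and at 7.65, 8.0 and 7.92 in siCONTROL, a rise of 0.64 ± 0.13 (SE; adjusted p = 0.0041). IFIT1 was at 9.83, 9.79 and 10.03 after 24 h and at 9.14, 9.35 and 9.30 in siCONTROL, a rise of 0.62 ± 0.14 (SE; adjusted p = 0.008). OASL was at 9.76, 9.87 and 9.93 after 24 h and at 9.20, 9.29 and 9.33 in siCONTROL, a rise of 0.58 ± 0.13 (SE; adjusted p = 0.0075). No array of these genes overlapped the other group. SP110 fell by 0.57, with 8.39 to 8.58 after 24 h and 8.91 to 9.09 in siCONTROL, a call lost without 24 h array A or B or siCONTROL array B or C.

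In BT549 1 member rose and 2 fell after 24 h, with 2.66% and 12.4% of all genes, and the medians were -0.02 and -0.09. IFI44L was at 7.51, 7.63 and 7.62 after 24 h and at 7.93, 8.39 and 8.32 in siCONTROL, a change of -0.63 ± 0.12 (SE; adjusted p = 0.0012) without overlap. SAMD9 was at 5.31, 6.08 and 5.86 after 24 h and at 6.15, 6.34 and 6.20 in siCONTROL, a change of -0.48 ± 0.12 (SE; adjusted p = 0.01). Its lowest value is that of array A, which stood apart, and without the 3 arrays that stood apart the change was -0.26 (adjusted p = 0.064). MX2 was at 4.38, 4.77 and 4.76 after 24 h and at 4.44, 4.18 and 4.26 in siCONTROL, a change of 0.34 ± 0.12 (SE; adjusted p = 0.045) with overlap and below the median probe level, and the call was lost without 24 h array B or C or siCONTROL array B or C. The count of falls was 1 without 24 h array A or siCONTROL array B, 4 without 24 h array B, and 5 without 24 h array C or siCONTROL array A. The scaling matters most here: with the medians of named genes aligned, the median of all genes moved from -0.09 to 0.17 and the split became 12 higher and 1 lower, and with quantile normalization repeated it was 4 and 1. The 2.66% and 12.4% are shares in the main fit and are no background for these splits. Whether the splits exceed the shares of all genes under those scalings was not tested.

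**Figure D4:**
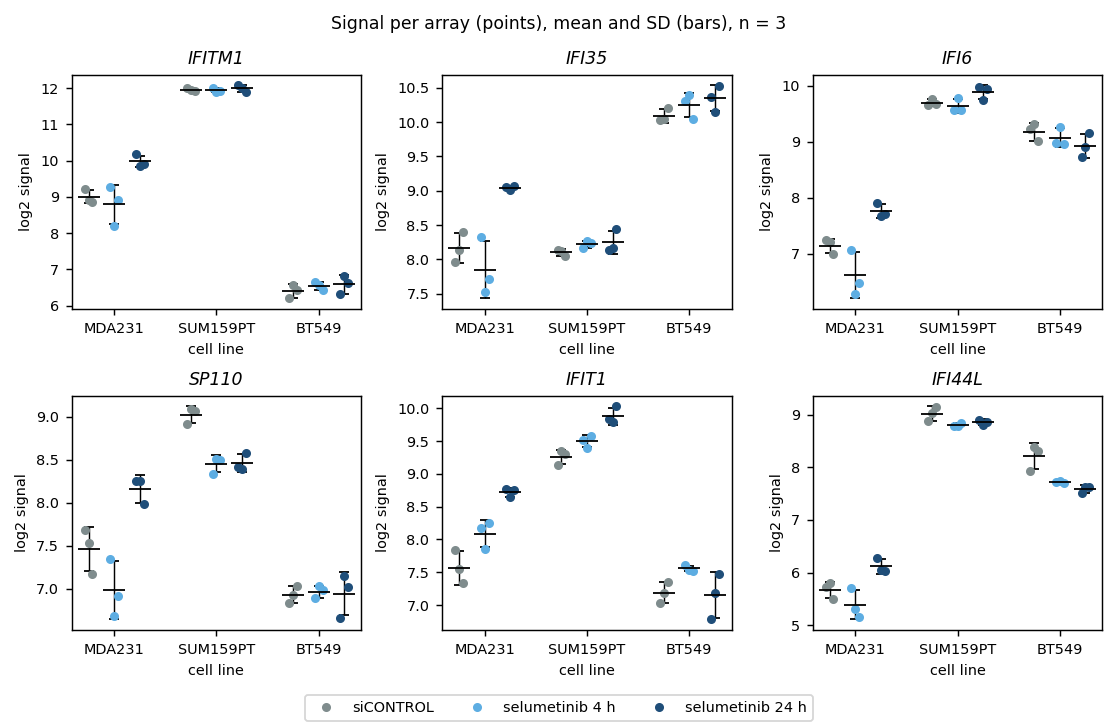
Log2 signal in each array (points), with mean and SD (bars, n = 3), for 6 genes in siCONTROL (grey), after 4 h (light blue) and after 24 h (dark blue) of selumetinib in each line. In MDA231 the 24 h points of all 6 genes lie above siCONTROL, whereas IFI44L in BT549 and SP110 in SUM159PT lie below.

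The 24 h change differed between lines for 11 of 37 members in the F test, against 9.91% of all genes. MDA231 minus BT549 gave 10 higher and 0 lower (6.37% and 2.6%), and MDA231 minus SUM159PT gave 5 higher (SP110, IFITM1, TRIM22, IFI35 and IFI44L) and 0 lower (2.96% and 2.52%). SUM159PT minus BT549 gave 1 higher, HERC6 at 0.95, and 0 lower (1.27% and 0.451%). At an unadjusted p under 0.05 limma gave 0, 2 and 2 lower in these 3 comparisons. The gene of opposite calls in MDA231 and SUM159PT was SP110, with changes of 0.70 and -0.57 and a difference of 1.27 ± 0.19 (SE; adjusted p = 3.1e-05). In MDA231 and BT549 it was IFI44L, with 0.44 and -0.63 and a difference of 1.07 ± 0.16 (SE; adjusted p = 3.2e-05).

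Between the 2 drug times, 24 h against 4 h, 21 members were higher and 0 lower in MDA231, against 20.4% and 4.48% of all genes, with medians of 0.38 over the members and 0.12 over all genes. Without the 3 arrays that stood apart 9 were higher, all of them among the 21. In SUM159PT 3 were higher, MX2 by 0.61, HERC6 by 0.66 and IFIT2 by 0.41, and 0 lower (2.32% and 0.685%), and without the arrays that stood apart, all from other lines, 9 were higher. In BT549 0 were higher and 2 lower, SAMD9 by -0.58 and IFIT5 by -0.47 (1.91% and 5.82%), and 1 was lower without the 3 arrays that stood apart. Left out singly, 24 h array A gave 0 lower, B 4 and C 7, and 4 h array A or B gave 1. At an unadjusted p under 0.05 limma gave 0 lower in MDA231 and SUM159PT and 0 higher in BT549.

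The arrays themselves show how far each pattern was shared. As a median over the 37 genes, the siDUSP4 arrays of MDA231 stood 0.28, 0.17 and 0.23 above the mean of their siCONTROL arrays, while those siCONTROL arrays spread from -0.07 to 0.06. In SUM159PT the siDUSP4 arrays stood at 0.09, 0.18 and 0.23, against siCONTROL arrays from -0.07 to 0.04. In BT549 they stood at -0.33, -0.32 and -0.34, against -0.08 to 0.08. The 24 h arrays of MDA231 stood at 0.40, 0.30 and 0.28, and the BT549 24 h array A at -0.26, where the median of all genes in that array was -0.30. The siDUSP4 arrays were thus outside the range of their own siCONTROL arrays in each line, in opposite directions in BT549 and the other two, while the medians of all genes stayed between -0.05 and 0.03 in those siDUSP4 arrays.

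**Figure D5:**
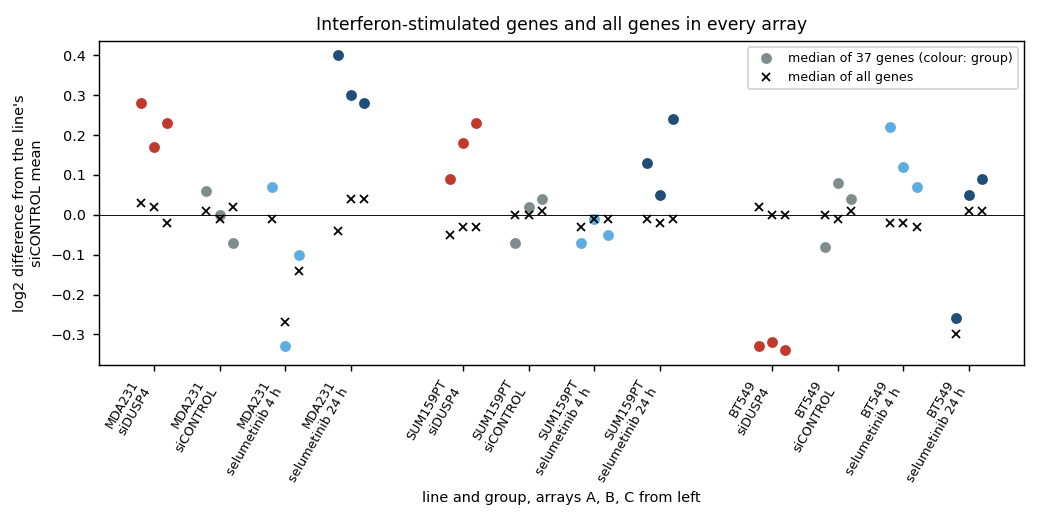
Median log2 difference from the mean of the line's siCONTROL arrays, over the 37 genes (filled points, coloured by group) and over all genes (crosses), for each of the 36 arrays. The siDUSP4 points of BT549 lie between -0.34 and -0.32 with crosses at 0.00 to 0.02, and the crosses of 3 arrays lie at -0.30, -0.27 and -0.14.

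Not every member was called against siCONTROL. ISG15, the ubiquitin-like protein that HERC5 conjugates, ISG20, an exonuclease, IRF7, which drives interferon alpha transcription, CMPK2, PARP14 and EIF2AK2, the kinase PKR that halts translation on double-stranded RNA, were called in none of the 9 comparisons with siCONTROL. ISG15 changed by 0.20, 0.11 and -0.26 with siDUSP4 in MDA231, SUM159PT and BT549. EIF2AK2 changed by 0.24, 0.04 and -0.19 in the same lines. Those 2 were among the 19 members with positive changes in MDA231 and SUM159PT and a negative one in BT549. Their adjusted p in limma was 0.11 or above in each line with siDUSP4. For EIF2AK2 the difference MDA231 minus BT549 was itself called, at 0.44 (adjusted p = 0.044).

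Members with and without the response element letters were set side by side, with no test. With siDUSP4 in BT549 the median change was -0.30 over the 21 genes with the letters (-1.77 to 0.65) and -0.35 over the 9 without (-0.88 to -0.01). In MDA231 the medians were 0.18 over the 21 and 0.46 over the 9, with 5 rises and 3 falls in the genes with the letters and 5 rises and 0 falls in those without. IFIT1 and IFI44, whose stretches are printed above, fell in BT549, and HERC5, whose stretch holds the letters too, rose there. The window covers only 300 bases, and other elements were not searched.

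The pathway around these genes was followed with lists of ligands, receptors, regulators and sensors. Of 21 interferon ligand genes 14 were measured, and with siDUSP4 0 were called by limma in any line, with 1, 0 and 2 at an unadjusted p under 0.05 in MDA231, SUM159PT and BT549. IFNB1, the type I ligand made by most cell types, was at 3.33, 3.28 and 3.19 in siDUSP4 arrays of MDA231, against 3.36, 3.15 and 3.38 in siCONTROL, and at 3.42, 3.35 and 3.19 in siDUSP4 arrays of BT549, against 3.17, 3.10 and 3.22 in siCONTROL. Those signals are among the low ones of the array, so a change in IFNB1 could be missed. After 4 h of selumetinib in MDA231 IFNA10 was at 2.52, 3.79 and 2.91, against 2.27, 2.36 and 2.41 in siCONTROL, a called change of 0.73. Its highest value is that of array B, and without the 3 arrays that stood apart the change was 0.18 (adjusted p = 0.86). After 24 h in BT549 IFNA10 was at 3.42, 2.52 and 2.80, against 2.26, 2.32 and 2.27 in siCONTROL, a change of 0.63, and of 0.38 without array A and the other arrays that stood apart (adjusted p = 0.023). IFNW1 there was at 4.57, 3.55 and 3.65, against 3.30, 3.41 and 3.57 in siCONTROL, which overlap, and its called change of 0.50 was 0.18 without those arrays (adjusted p = 0.46). All these signals lie well below the median probe level of 5.328.

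Of 10 measured receptor and kinase genes 3 fell with siDUSP4 in MDA231, 2 in SUM159PT and 2 in BT549, against 9.77%, 1.78% and 9.22% of all genes, and 0 rose. IFNGR1, the ligand-binding chain of the type II receptor, fell in each line. Its arrays in BT549 were at 8.02, 8.05 and 7.94 with siDUSP4, against 9.52, 9.42 and 9.34 in siCONTROL, a change of -1.42 (adjusted p = 4e-09). The change was -0.79 in MDA231 and -0.56 in SUM159PT, so IFNGR1 moved the same way where the induced genes moved apart. IL10RB, shared by the type III and interleukin 10 receptors, fell by 0.68 in MDA231 and 0.62 in SUM159PT, IFNGR2 by 0.43 in MDA231, and IFNAR2, a chain of the type I receptor, by 0.65 in BT549. The other type I chain, IFNAR1, changed by -0.14, -0.24 and -0.09 and was not called. After 24 h of selumetinib in MDA231 IL10RB rose by 0.57 and STAT3 by 0.27, and JAK2 fell by 0.67 and IFNGR2 by 0.56.

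Of 11 negative regulators 1 rose with siDUSP4 in MDA231, the phosphatase PTPN1 by 0.40, 0 changed in SUM159PT, where limma gave no call in either direction, and 1 rose in BT549, the repressor IRF2 by 0.41, against 7.86%, 1.05% and 4.97% of all genes higher. Of 17 genes of nucleic acid sensing 2 fell in MDA231, 1 rose in SUM159PT and 3 fell in BT549, where 9.77% of all genes fell, 1.05% rose and 9.22% fell, so the MDA231 count is near the background. TRIM25, a ligase that activates RIG-I, fell by 0.30 in MDA231. STING1, the adaptor for cytosolic DNA, fell by 0.69 in MDA231 and 1.04 in BT549, where its siDUSP4 arrays were at 5.44, 5.31 and 5.32, against 6.34, 6.48 and 6.36 in siCONTROL. TICAM1, the adaptor of TLR3, fell by 0.62 in BT549 and TLR3 itself by 0.37. DHX58, a regulator of RIG-I, rose by 0.43 in SUM159PT. After 24 h of selumetinib in MDA231 5 of the 17 rose and 2 fell, against 7.36% and 10.3% of all genes. TLR3, a receptor for double-stranded RNA, was at 7.86, 7.77 and 8.07, against 6.38, 6.58 and 6.47 in siCONTROL, a change of 1.42 (adjusted p = 1.1e-10), while RIGI, the sensor once named DDX58, fell by 0.93. IKBKE, a kinase of this pathway, rose by 0.68 and DHX58 by 0.56. Among the regulators there, PTPN6 rose by 0.75 and SOCS3 by 0.49, and PTPN11 fell by 0.28. In SUM159PT 1 of the 11 regulators fell after 4 h, where 3.81% of all genes did. It was TRIM21, with a mean of 7.11 at 4 h and 7.52 in siCONTROL. After 4 h in MDA231 5 sensing genes (IKBKE, MAVS, STING1, TBK1 and TICAM1) and 3 receptor and kinase genes (IFNGR1, IFNGR2 and JAK2) were called lower, where 14.5% of all genes were. Without the 3 arrays that stood apart none of these 8 was called, with IKBKE at -0.20 in place of -0.55, MAVS at 0.05 in place of -0.55 and IFNGR2 at -0.20 in place of -0.67.

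Further interferon-induced genes outside the 39 were counted as well. Of 43 listed, 39 were measured, and with siDUSP4 5 rose and 5 fell in MDA231, 1 rose and 2 fell in SUM159PT, and 1 rose and 12 fell in BT549, beside 7.86% and 9.77%, 1.05% and 1.78%, and 4.97% and 9.22% of all genes. The medians were 0.04, 0.02 and -0.22. CXCL10, a chemokine that draws T cells, was at 4.98, 4.99 and 5.01 in siDUSP4 arrays of BT549, against 6.92, 6.34 and 6.23 in siCONTROL, a change of -1.50 (adjusted p = 3.7e-09). In SUM159PT it fell by 0.92, where 8 of the 37 members rose, and in MDA231 its change of 0.34 was not called. CCL5, another chemokine, was at 6.51, 6.52 and 6.32 in siDUSP4 arrays of BT549 and at 8.14, 8.10 and 7.88 in siCONTROL, a change of -1.59 (adjusted p = 2.2e-07). LGALS3BP, a secreted glycoprotein, fell by 1.40 in BT549 and by 0.54 in MDA231, and PARP12 changed by 0.83 in MDA231 and -0.35 in BT549, both called.

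After 24 h of selumetinib 9 of those 39 rose and 2 fell in MDA231, 3 rose and 1 fell in SUM159PT, and 2 rose and 5 fell in BT549, beside 7.36% and 10.3%, 1.34% and 2.94%, and 2.66% and 12.4% of all genes. TNFSF10 (TRAIL), a death ligand, was at 10.53, 10.39 and 10.23 after 24 h in MDA231, against 7.31, 7.45 and 6.95 in siCONTROL, a change of 3.15 (adjusted p = 2e-16). The guanylate-binding protein GBP2 was higher in MDA231 by 1.00 and in BT549 by 0.57, and IDO1, a tryptophan-degrading enzyme, rose in each line, by 0.79, 1.06 and 0.49 in MDA231, SUM159PT and BT549. CD274 (PD-L1), an immune checkpoint ligand, went the other way and fell in each line, by 1.99, 0.75 and 1.13 in the same order. Its 4 h changes were -1.79, -1.02 and -0.89, all called. After 4 h 2 of the 39 rose and 12 fell in MDA231, 0 and 3 in SUM159PT, and 0 and 1 in BT549. The shares of all genes were 1.11% and 14.5%, 0.473% and 3.81%, and 0.161% and 0.49%. In MDA231 TNFSF10 then changed by 1.02 and LGALS3BP by -0.57, or 1.24 and -0.07 without the 3 arrays that stood apart. TRANK1 in SUM159PT averaged 6.34 at 4 h and 6.95 in siCONTROL.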

How the data were processed

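RNA from 36 samples was amplified to sense-strand cDNA for Affymetrix arrays, per the labels' protocols. The authors deposited log2 signals, for which the submitters' processing notes name RMA and Affymetrix Expression Console 1.1; the genome build of the array is not given in the sources used here. RMA compresses dim signals, so changes of low genes are understated. Of 33297 probes, 19181 had 1 symbol, 2055 several and 12061 none. limma 3.58.1 (R 4.3.3) fitted the 36 arrays with a mean for each of 12 groups (24 residual and 7.8 prior degrees of freedom). Hybridisation between close family members was not tested. The members and all lists were chosen with earlier results of these data known. Values in every array are given for the 5 called members of largest change with siDUSP4 and the 3 of largest change with each selumetinib time in each line, and up to 4 called genes per pathway list and treatment are named, besides IFNB1, IFNAR1, CXCL10, RIGI and DUSP4. Other values in the text were chosen after they were seen. Same-letter arrays of a line correlated above 0.1 in all 3 pairs only for siCONTROL and 4 h in SUM159PT (0.105 to 0.271). The main fit did not treat the letters as pairs, there or elsewhere, and only the replicate block fit below did. The fit was tested on simulated data.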

Additional observations from a re-analysis of the deposited data

Results flagged for a closer look

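Several genes were called in opposite directions in 2 lines under the same treatment, and the difference of the changes was itself called by limma. With siDUSP4, MDA231 minus BT549, the differences on the log2 scale were 2.53 for IFIT1, 2.60 for IFIT2, 1.59 for IFIT3, 1.58 for OASL, 1.44 for IFI35 and 1.54 for SAMD9L, with adjusted p-values of 3.5e-06 or less. With siDUSP4, SUM159PT minus BT549, they were 1.33 for OAS2, 1.62 for OASL, 1.01 for IFI35 and 1.52 for RSAD2, with adjusted p-values of 0.0012 or less. After 24 h of selumetinib the difference was 1.27 for SP110, MDA231 minus SUM159PT, and 1.07 for IFI44L, MDA231 minus BT549. For all 12 differences the 3 arrays of the treated group lay outside the range of siCONTROL in both lines. The genes were picked for opposite calls in these same arrays. The called differences and the separation of arrays largely follow from that choice and are no separate evidence.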

How the results depend on the processing

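Of 434 repeats of the 29 changes given with values in every array, 383 kept their direction and side of the threshold, 50 kept the direction only and 1 reversed, USP18 after 4 h in MDA231 (0.03 without the 3 arrays that stood apart). With siDUSP4 the counts ran from 10 to 12 higher in MDA231 and from 12 to 16 lower in BT549 when single arrays were left out, and from 3 to 7 higher in SUM159PT. The other counts that moved by over 1.5 times follow, with the range without single arrays first. After 4 h in MDA231 they were 0 to 1 higher and 0 to 13 lower (12 arrays of the line alone 0 and 0, quantile normalization repeated 3 higher, without the 3 arrays 0 and 0, medians of named genes aligned 4 and 1). After 4 h in SUM159PT they were 0 to 1 lower (line alone 2), and in BT549 0 to 1 in either direction (line alone 0 lower, without the 3 arrays 1 higher). After 24 h in MDA231 0 to 1 were lower (1 under each scaling and without the 3 arrays). After 24 h in SUM159PT 2 to 3 were higher (line alone 6, quantile 7, without the 3 arrays 5, named genes aligned 5) and 0 to 1 lower. After 24 h in BT549 0 to 1 were higher (line alone 0, replicate block 0, quantile 4, trend and robust 0, named genes aligned 12) and 1 to 5 lower (line alone, quantile, without the 3 arrays and named genes aligned 1 each). For 24 h against 4 h, MDA231 had 9 higher without the 3 arrays and 1 lower with quantile or named genes aligned. SUM159PT had 8 higher with the line alone and 9 without the 3 arrays. BT549 had 2 higher with named genes aligned and 0 to 7 lower (line alone 0, replicate block 5, quantile 0, without the 3 arrays 1, named genes aligned 0). With siDUSP4 in BT549 2 were higher with quantile, 2 without the 3 arrays and 3 with named genes aligned. The levels MDA231 above SUM159PT numbered 1 to 3, and the lower siDUSP4 differences 1 to 2 (MDA231 minus BT549) and 2 to 4 (MDA231 minus SUM159PT). In the replicate block the F tests called 22 members for siDUSP4, 0 at 4 h and 10 at 24 h, and the paired fit moved no other count by over 1.5 times. No shares of all genes are given for these repeats, so their counts cannot be set against a background. Aligning named genes and leaving out the 3 arrays were chosen after seeing the data. The causes were not tested.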
